A study of Homo sapiens with 15 samples.

Results

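The genes described here are AKT1, AKT2, MTOR, TSC1, STK11, DDIT4 and EIF4EBP1, the kinases of the AKT-mTOR axis together with genes that restrain it. They were chosen by symbol from a list of 8 genes, of which 7 have a row among the 730 endogenous genes of the panel, and no row carries the symbol TSC2, which was not analysed here. HCT116, a human colorectal cancer line, was left untreated as control, or received 40 µM TQ (thymoquinone, a quinone of black seed), 15 µM 5-FU (5-fluorouracil, a pyrimidine analogue), Combi (35 µM TQ plus 35 µM 5-FU) or 35 µM SARB, a hybrid of TQ and 5-FU derivatives joined by esterification. RNA was taken after 24 h, and each of the 5 groups had 3 samples, described in the series as biological replicates. Transcripts were counted on the NanoString nCounter platform, in which a probe pair with a colour barcode binds each transcript and the barcodes are counted without amplification.

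AKT kinases are switched on downstream of PI3K and inhibit the TSC1-TSC2 complex, which otherwise keeps the GTPase RHEB inactive. Active RHEB turns on mTOR complex 1, which drives protein synthesis, in part by phosphorylating and so inactivating 4E-BP1, the translational repressor encoded by EIF4EBP1. Several brakes act on this chain: STK11 (LKB1) activates the energy sensor AMPK, and DDIT4 (REDD1), a gene induced by hypoxia, DNA damage and other stress, acts through the TSC complex to inhibit mTOR complex 1. The counts measure the transcripts of these genes, whereas the kinases themselves are controlled largely by phosphorylation, which the assay does not see.

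DDIT4 was called lower in all 4 treatments and STK11 higher in 3, and the 250 bases before their annotated starts are shown for that reason. Capitals mark every match, on either strand, to any of 3 short motifs. The first is ACGTG, the core of a hypoxia response element. Another is TGACG, known as an ATF/CREB half-site. The last is CCAAT, the letters of the promoter box of that name.
DDIT4, chr10:72273674-72273923, plus strand: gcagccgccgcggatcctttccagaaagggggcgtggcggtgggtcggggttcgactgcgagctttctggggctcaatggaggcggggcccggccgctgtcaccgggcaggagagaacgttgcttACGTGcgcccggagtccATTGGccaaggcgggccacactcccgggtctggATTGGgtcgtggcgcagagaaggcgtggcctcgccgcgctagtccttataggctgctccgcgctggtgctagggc
STK11, chr19:1205528-1205777, plus strand: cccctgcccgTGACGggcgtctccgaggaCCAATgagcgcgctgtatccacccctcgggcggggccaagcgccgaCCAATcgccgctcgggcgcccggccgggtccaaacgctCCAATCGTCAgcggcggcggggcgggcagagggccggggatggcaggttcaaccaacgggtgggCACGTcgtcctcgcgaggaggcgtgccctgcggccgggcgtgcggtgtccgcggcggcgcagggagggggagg
Both sequences are those of RefSeq on GRCh38.p14 and are written 5′ to 3′. The DDIT4 sequence held 1 ACGTG, 125 to 121 bases before the start, and 2 CCAAT boxes in reverse orientation at 108 to 104 and 75 to 71 bases, and it held no TGACG. STK11 held 1 ACGTG in reverse orientation at 73 to 69 bases, 2 TGACG, and 3 CCAAT boxes, and no match overlapped another. Among 35116 human promoter sequences of this length, 18.5% held ACGTG, 21.2% held TGACG and 32.0% held CCAAT, so each motif is common. Promoter sequences were found for 6 of the 7 genes. MTOR held 3 CCAAT boxes and TSC1 held 1 TGACG. The TSC1 sequence, 132944617 to 132944866 on the minus strand, lies within the span given for that gene below. AKT2, with 2 annotated starts, held 1 TGACG at the first and 1 CCAAT at the other, and AKT1 held none at either of its 2 starts. These matches are matches of letters only, and binding was not measured. On the same build the genes lie on chromosome 10 from 72273924 to 72276036 (DDIT4), chromosome 19 from 1205778 to 1228431 (STK11), chromosome 9 from 132891349 to 132945378 (TSC1), chromosome 1 from 11106535 to 11262551 (MTOR), chromosome 14 from 104769349 to 104795748 (AKT1) and chromosome 19 from 40230317 to 40285345 (AKT2).

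Endogenous counts summed to between 135017 and 607782 per sample. All 7 genes lay above the mean plus 2 SD of the 8 negative probes in all 15 samples, and the lowest raw count was 58, for DDIT4 in TQ replicate 1. Levels are given as scaled counts, which are raw counts multiplied by 1 factor per sample that gives the 40 housekeeping genes an equal geometric mean in all samples. On that scale the median change over the 730 genes (log2, treatment over control) was -0.47 for TQ, -0.27 for 5-FU, -0.41 for SARB and -0.10 for Combi, so a gene that fell by these amounts moved with the bulk of the panel. Control replicate 1 and all TQ, 5-FU and SARB samples ran on 1 cartridge, control replicates 2 and 3 and Combi replicate 1 on another, and Combi replicates 2 and 3 on the remaining one. A fit with cartridge as a block therefore sets TQ, 5-FU and SARB against the single control on their cartridge, and uses only the first Combi sample for Combi. Of the epithelial markers on the panel, 6 of 7 (control) or 7 of 7 (each treatment) lay above background in every sample, and their summed level ranged from 3805 to 5104 in control, 5381 to 6073 in SARB, 3177 to 3459 in TQ, 6904 to 7619 in Combi and 6917 to 7042 in 5-FU. At most 1 of 5 haematopoietic and 1 of 5 mesenchymal markers passed that level in every sample of a group. The part of these marker differences in the results was not tested, and in bulk RNA fewer cells with a transcript and less of it per cell cannot be told apart.

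DDIT4, EIF4EBP1 and STK11 were called in some or all treatments, and AKT1, AKT2, MTOR and TSC1 in none. A call needs an adjusted p of at most 0.05 (edgeR quasi-likelihood test, Benjamini-Hochberg over 730 genes) and a fold change of at least 1.5. In TQ, 1 of the 7 genes was called lower (DDIT4) and 0 higher, where 21.6% of all genes were called lower and 3.42% higher. In 5-FU, 2 were called lower (DDIT4 and EIF4EBP1) and 1 higher (STK11), against 10.1% lower and 10.1% higher over the panel. Combi had the same 2 genes lower and the same 1 higher, against 6.58% lower and 13.6% higher. SARB again had those 2 genes lower and that 1 higher, against 20% lower and 8.63% higher. TMM normalization, which centres the bulk of the panel, turned the balance of the panel, from 158 lower and 25 higher to 44 lower and 79 higher in TQ, from 146 and 63 to 68 and 120 in SARB, and from 74 and 74 to 41 and 104 in 5-FU, and left it at 42 lower and 119 higher in Combi. With 7 genes, shares of the size seen under housekeeping scaling are close to what the panel as a whole gave, apart from the lower calls in 5-FU and Combi. All 4 treatments were compared with the same 3 control samples, so a control sample that stands apart moves all 4 comparisons together. Whether samples overlap those of control or of another treatment is given below as a description only. The share of the 730 genes whose samples separate in either way was not counted.

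DDIT4, the stress-induced inhibitor of mTOR complex 1, fell in all 4 treatments. The control samples held 655, 493 and 398 scaled counts in replicates 1, 2 and 3. TQ held 142, 128 and 121, and 5-FU held 186, 233 and 288. Every treated sample of these groups was below the lowest control sample, and the TQ samples were below all samples of every other group. Combi held 270.4, 355 and 349.8, and SARB held 217, 282 and 173, again all below control. The mean fell from 516 ± 130 (SD, n = 3) in control to 325 ± 47.5 in Combi, 235 ± 51.1 in 5-FU, 224 ± 54.9 in SARB and 130 ± 10.6 in TQ. In that order the step from control to Combi and the step from SARB to TQ had no overlap of samples, and the Combi, 5-FU and SARB neighbours overlapped. The log2 fold change was -1.99 in TQ (standard error 0.21, adjusted p = 5.32e-07), -1.22 in SARB (0.19, adjusted p = 4.56e-05), -1.13 in 5-FU (0.20, adjusted p = 0.000141) and -0.66 in Combi (0.19, adjusted p = 0.0112) in the edgeR fit. In every group the fall went past the shift of the panel's median. The Combi call rested on single samples: without control replicate 1, the highest of the 3, its log2 fold change was -0.45, and without Combi replicate 1 it was -0.55, neither being called. Under the cartridge block the control of TQ, 5-FU and SARB is control replicate 1, the highest of the 3. The values were then -2.34, -1.48, -0.72 and -1.58 in TQ, 5-FU, Combi and SARB. Only Combi lost its call, as it did after TMM normalization (-0.58).

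DDIT4 is known to be induced by ATF4, CHOP, HIF factors and some others. Of these DDIT3, which encodes CHOP, is on the panel and averaged 1556 ± 203 scaled counts in TQ, 894 ± 239 in control, 861 ± 164 in Combi, 582 ± 114 in SARB and 457 ± 28.4 in 5-FU. DDIT3 rose in TQ by 0.80 on the log2 scale (adjusted p = 0.0027, edgeR fit). In the same fit it fell in 5-FU by 0.97 (adjusted p = 0.000372) and in SARB by 0.63 (adjusted p = 0.0104). Any part of DDIT3 in the level of DDIT4 was not tested, and CHOP protein was not measured. The SARB call of DDIT3 was lost without SARB replicate 3 (-0.48), control replicate 1 (-0.53) or control replicate 2 (-0.49). It was also lost after TMM normalization (-0.31). With the cartridge block the TQ rise of DDIT3 was 0.61 and no longer called.

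EIF4EBP1, which encodes the translational repressor 4E-BP1, fell in the 3 treatments that contain 5-FU or its derivative. Control held 1065, 1258 and 1390.0 scaled counts, and TQ held 886, 805 and 869.8. The TQ samples were below every control sample but above every sample of the other 3 treatments. The 5-FU samples held 548, 596 and 655, the SARB samples 577, 542 and 474, and the Combi samples 733, 342 and 404. Combi replicate 1, which ran on another cartridge than Combi replicates 2 and 3, lay above all 5-FU and SARB samples, and its partners lay below them all, so Combi had the widest spread of any group for this gene. Means were 1238 ± 163 in control, 854 ± 43.1 in TQ, 599.6 ± 53.3 in 5-FU, 531 ± 52.4 in SARB and 493 ± 210.1 in Combi (SD, n = 3). The control to TQ and TQ to 5-FU steps had no overlap of samples, while 5-FU, SARB and Combi overlapped each other in that order. The log2 fold change was -1.05 in 5-FU (standard error 0.19, adjusted p = 0.000266), -1.35 in Combi (0.19, adjusted p = 1.35e-05) and -1.22 in SARB (0.19, adjusted p = 4.15e-05). In TQ it was -0.54 (0.19, adjusted p = 0.0352), short of the 1.5-fold change needed, close to the panel's median of -0.47 in TQ, and -0.08 after TMM normalization. Without control replicate 1 the TQ value was -0.64 and was called. With the cartridge block the values were -0.32, -0.83, -0.85 and -1.01 in TQ, 5-FU, Combi and SARB, and the last 3 kept their calls.

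STK11, which encodes the AMPK-activating kinase LKB1, rose in 5-FU, Combi and SARB. Control held 337, 228 and 222 scaled counts, and replicate 1 stood apart as the highest. The TQ samples, at 313, 268 and 329, overlapped control. All 5-FU samples (427, 444 and 541) and all SARB samples (434, 519 and 384) were above all control samples. Combi held 302, 462 and 443, and its replicate 1 fell below control replicate 1. The means ran from 471 ± 61.1 in 5-FU through 446 ± 68.4 in SARB, 402 ± 87.2 in Combi and 303 ± 32.0 in TQ to 262 ± 64.9 in control (SD, n = 3), and every pair of neighbours in that order overlapped. The log2 fold change was 0.84 in 5-FU (standard error 0.18, adjusted p = 0.00122), 0.63 in Combi (0.18, adjusted p = 0.0112), 0.76 in SARB (0.18, adjusted p = 0.00251) and 0.20 in TQ (0.19, adjusted p = 0.401). The Combi call was lost without control replicate 2 (0.54), control replicate 3 (0.52), Combi replicate 2 (0.52) or Combi replicate 3 (0.56). With the cartridge block, in which control replicate 1 is the control of TQ, 5-FU and SARB, the values were 0.48 in 5-FU, 0.39 in SARB, 0.42 in Combi and -0.17 in TQ, and STK11 was called in none. After TMM normalization STK11 was called higher in all 4, at 1.08 in SARB, 1.02 in 5-FU, 0.71 in Combi and 0.64 in TQ. The calls of STK11 thus differed with the scaling and with the control samples used.

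TSC1, the stabilising partner of TSC2 in the complex that holds RHEB inactive, moved less. Its 3 control samples lay between 127 and 151 scaled counts. The 5-FU samples (178 to 218) and the Combi samples (169.7 to 191) were all above control, while TQ (136 to 188) and SARB (148 to 186) overlapped it. Means were 142 ± 13.3 in control, 163 ± 20.2 in SARB, 163 ± 26.1 in TQ, 180.5 ± 10.7 in Combi and 197 ± 20.1 in 5-FU, and all neighbours in that order overlapped. In 5-FU the log2 fold change of 0.47 passed the adjusted p (0.029, edgeR quasi-likelihood test) but not the 1.5-fold change, and in TQ (0.17), Combi (0.34) and SARB (0.19) neither was passed. TMM normalization brought TSC1 past both in TQ (0.64) and 5-FU (0.66).

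The kinases changed little. AKT1 had its highest mean in 5-FU, 1756 ± 72.2 scaled counts, followed by TQ (1628 ± 85.8), control (1578 ± 195), SARB (1408 ± 27.8) and Combi (1407 ± 48.2). AKT2 ranged only from 465 ± 52.4 in TQ to 531 ± 40.8 in control. For both genes every treatment overlapped control and every pair of neighbours in the order of means overlapped. Log2 fold changes lay between -0.16 and 0.15 for AKT1 and between -0.20 and 0.00 for AKT2, smaller than 1.5-fold in each treatment. After TMM normalization the values in TQ and SARB were 0.49 and 0.18 for AKT1 and 0.27 and 0.16 for AKT2, again without a call. AKT1 thus changed sign in SARB and AKT2 in both. AKT1 in TQ then passed the adjusted p (0.0218, edgeR quasi-likelihood test) without reaching 1.5-fold. MTOR, which encodes the kinase itself, held 225, 248 and 271 scaled counts in control. It held 181, 194 and 203 in TQ and 172, 166 and 204 in 5-FU, all below control, and 268, 271 and 296 in Combi and 189.9, 193 and 234 in SARB, both overlapping control. Its log2 fold change was -0.46 in 5-FU (adjusted p = 0.0161, short of 1.5-fold), -0.36 in TQ (adjusted p = 0.051), -0.26 in SARB (adjusted p = 0.132) and 0.17 in Combi (adjusted p = 0.406) in the edgeR fit. The falls in TQ and SARB were smaller than those of the panel's median, -0.47 and -0.41. The value for MTOR in TQ and SARB turned to 0.12 after TMM normalization, so its direction there depended on the scaling. In 5-FU MTOR was at -0.26 after TMM normalization and no longer passed the adjusted p, and with the cartridge block it was at -0.32.

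**Figure D1:**
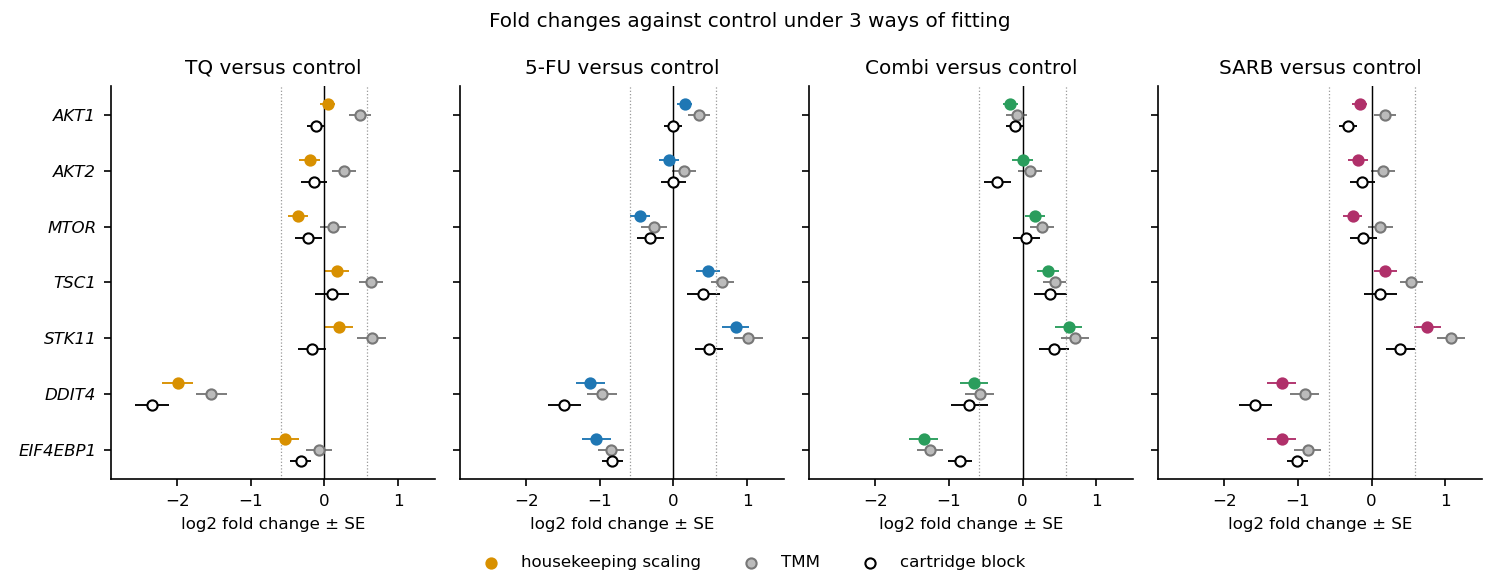
Log2 fold change against control (horizontal axis) of the 7 genes in each treatment, where filled coloured points with bars of 1 standard error show housekeeping scaling, the other symbols show TMM normalization and cartridge as a block, and the dotted lines mark a 1.5-fold change. DDIT4 was left of 0 in every treatment and setting, EIF4EBP1 was furthest left in Combi under housekeeping scaling, and STK11 in TQ changed side under the cartridge block.

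Brakes and kinases were also set against each other within each sample, which removes the scaling factor of that sample. This ratio, of each gene to the geometric mean of AKT1, AKT2 and MTOR, was chosen after the values were seen and is given as a description, in log2 units with the control mean set to 0. TSC1 per kinase transcript was 0.59 ± 0.10 in 5-FU, 0.40 ± 0.19 in SARB, 0.36 ± 0.23 in TQ and 0.35 ± 0.11 in Combi, and every treated sample was above every control sample. STK11 per kinase transcript was 0.98 ± 0.16 in 5-FU and 0.99 ± 0.23 in SARB, above control in all samples, and it was 0.40 ± 0.15 in TQ and 0.62 ± 0.24 in Combi, both overlapping control. DDIT4 ran the other way, at -1.79 ± 0.08 in TQ, -1.01 ± 0.31 in 5-FU, -0.997 ± 0.36 in SARB and -0.64 ± 0.13 in Combi. EIF4EBP1 was at -0.36 ± 0.05, -0.92 ± 0.12, -1.01 ± 0.12 and -1.40 ± 0.68 in the same order. For DDIT4 and EIF4EBP1 all treated samples lay below all control samples. In this ratio TSC1 was up and DDIT4 down in every treatment, but lower kinase transcripts also raise the ratio. The scaled counts of TSC1 overlapped control in TQ and SARB, and TSC1 was called in no treatment under housekeeping scaling. The share of all genes whose ratio separates from control in this way was not counted. The ratios still hold the cartridge difference between control replicate 1 and its partners.

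**Figure D2:**
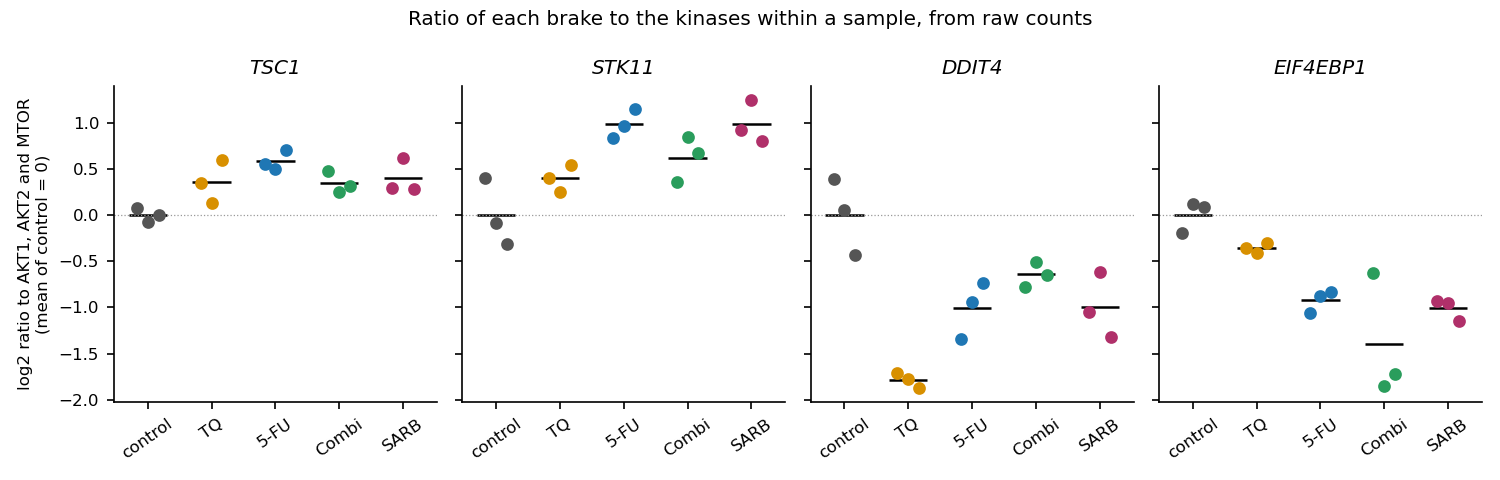
Log2 ratio (vertical axis) of TSC1, STK11, DDIT4 and EIF4EBP1 to the geometric mean of AKT1, AKT2 and MTOR, with the control mean at 0, 1 point per sample and a bar at the mean of each group. TSC1 samples of all treatments were above control and DDIT4 and EIF4EBP1 samples were below it, with the lowest DDIT4 ratios in TQ.

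SARB and Combi give the comparison at matched dose, 35 µM of the joined molecule against 35 µM of each free compound, and it was the 1 pair of compounds compared. Of the 7 genes, 0 were called higher and 0 lower, where 0.959% of the panel was called higher and 11.2% lower and the median of all genes was -0.32. DDIT4 was lower in SARB by a log2 difference of -0.57 (95% interval -0.97 to -0.17, adjusted p = 0.0432) and MTOR by -0.43 (-0.69 to -0.16, adjusted p = 0.0257), and both passed the edgeR threshold on the adjusted p without reaching 1.5-fold. The SARB and Combi samples of MTOR did not overlap, and those of DDIT4 overlapped, with SARB replicate 2 above Combi replicate 1. How many of all genes separate between SARB and Combi was not counted. Without Combi replicate 1 the DDIT4 difference was -0.68 and without SARB replicate 2 it was -0.76, and both were called. For the remaining genes the intervals covered 0: AKT1 0.00 (-0.21 to 0.22), AKT2 -0.19 (-0.47 to 0.10), TSC1 -0.16 (-0.46 to 0.14), STK11 0.13 (-0.23 to 0.49) and EIF4EBP1 0.12 (-0.28 to 0.52). After TMM normalization DDIT4 was at -0.33 (adjusted p = 0.283) and MTOR at -0.15 (adjusted p = 0.584), neither past the threshold. With the cartridge block DDIT4 was at -0.86 and MTOR at -0.16, and neither was called. The intervals above do not exclude moderate differences, and no cartridge held both SARB and Combi.

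Combi was also set against the sum of the log2 fold changes of TQ and 5-FU alone, although the doses differ, since the TQ dose was lower and the 5-FU dose higher in Combi than when each was given alone. DDIT4 was above that sum by 2.47 (standard error 0.29, adjusted p = 2.21e-06) and MTOR by 0.98 (0.19, adjusted p = 0.000525) in the edgeR fit, so 2 of the 7 genes were called higher and 0 lower, where 29.2% of the panel was called higher and 7.12% lower. For DDIT4 this reflects a fall in Combi that was smaller than in TQ alone or in 5-FU alone. The median of all genes was itself 0.70 above the sum. TMM normalization brought it to 0.13, kept DDIT4 at 1.92, took MTOR to 0.41 without a call, and put AKT1 (-0.92), TSC1 (-0.86) and STK11 (-0.95) below the sum. With the cartridge block DDIT4 was at 3.10 and called and MTOR at 0.58 and not called. In that fit the control of TQ and 5-FU was control replicate 1, the highest control sample for DDIT4. Without control replicate 1, STK11 was called below the sum, at -0.63.

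The other genes of the pathway were taken from lists of pathway genes, and 27 of those on the panel are reported. In TQ, 1 of the 27 was called higher and 7 lower, where 3.42% of the panel was called higher and 21.6% lower. Their median log2 fold change was -0.38 against -0.47 for all genes. In 5-FU the counts were 3 and 3 (median -0.10 against -0.27), in Combi 4 and 2 (0.05 against -0.10), and in SARB 4 and 5 (-0.23 against -0.41). The panel's shares, higher and then lower, were 10.1% and 10.1% in 5-FU, 13.6% and 6.58% in Combi and 8.63% and 20% in SARB. The list counts were mostly close to these shares. TMM normalization gave 6 higher and 3 lower in TQ, 5 and 1 in 5-FU, 6 and 2 in Combi and 5 and 1 in SARB, so the balance in TQ and SARB depended on the scaling. Under the cartridge block the counts were 0 and 1 in TQ, 2 and 1 in 5-FU, 3 and 0 in Combi and 2 and 2 in SARB. AKT substrates gave the most calls, with 9 on the panel. Among them CDKN1A, the p21 cell cycle inhibitor, fell by 0.95 in TQ and rose in SARB by 2.39, in Combi by 2.68 and in 5-FU by 2.18, and MDM2, which encodes a ubiquitin ligase, rose by 2.14 in SARB, 2.29 in Combi and 2.05 in 5-FU. The rises of both genes were called under the cartridge block too, and the fall of CDKN1A in TQ was not (-0.56). CDKN1B, the p27 cell cycle inhibitor, fell in Combi (-0.92) and SARB (-0.68), and the SARB call was lost without control replicate 1 (-0.41) or SARB replicate 3 (-0.55). GSK3B, the kinase that AKT inhibits, fell in TQ (-1.17), 5-FU (-0.79) and SARB (-0.81). Its 5-FU and SARB calls were lost without control replicate 3 (-0.55 and -0.57). BAD, a pro-apoptotic substrate, fell in TQ (-1.32), and so did FOXO4 (-0.70), a transcription factor whose call was lost without any 1 of 5 samples, control replicate 2 (-0.51) being the largest move. With the cartridge block BAD (-0.83 in TQ) and CDKN1B (-1.13 in SARB) were called, and GSK3B (-0.43 in TQ, -0.05 in 5-FU and -0.08 in SARB), FOXO4 (-0.29) and CDKN1B in Combi (-0.35) were not. TMM normalization ended the calls of GSK3B in 5-FU (-0.57) and SARB (-0.44), of CDKN1A (-0.47) and FOXO4 (-0.20) in TQ and of CDKN1B in SARB (-0.34), took GSK3B and BAD in TQ to -0.68 and -0.83, both still called, and put CDKN1B in TQ at 0.76, called higher.

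Upstream, PIK3R2, a regulatory subunit of PI3K, rose in 5-FU (0.87), Combi (0.65) and SARB (0.60). Under the cartridge block it was called in Combi (0.78) and not in 5-FU (0.43) or SARB (0.16). It lost the Combi call without control replicate 2 (0.41) and the SARB call without control replicate 2 (0.36) or SARB replicate 1 (0.56). IGF1R, a receptor that feeds PI3K, rose in Combi (0.68), a call lost without Combi replicate 3 (0.53) and with the cartridge block (0.07). Its adaptor IRS1 fell in TQ (-0.95), a call lost with the cartridge block (-0.62) and after TMM normalization (-0.47). PIK3R5 fell in TQ (-1.34) and SARB (-1.12), with raw counts of 8 to 31 in those groups, and both calls were lost after TMM normalization (-0.90 and -0.82) and with the cartridge block (-1.11 and -0.89). PIK3CG was called lower in Combi (-1.50), although 0 of 3 Combi and 1 of 3 control samples were above background, so its size is not exact, and with the cartridge block it was at -0.0016. Of 4 genes of the PP2A phosphatase list, PPP2CB, a catalytic subunit, rose in SARB (0.71), a call lost with the cartridge block (0.39). PPP2R2B was called lower in TQ (-2.47), 5-FU (-1.36) and SARB (-1.61), although 1 of 3 control, 0 of 3 TQ and 0 of 3 5-FU samples were above background, so these sizes are not exact. Its values under the cartridge block were -1.55, -0.43 and -0.68 and none was called, and TMM normalization ended the 5-FU call (-1.15). The lists of energy sensors, with 1 gene on the panel, and of translation outputs, with 2, had no call. Leaving out single samples ended the low-count calls of PIK3R5 in TQ (without control replicate 3, -1.22, or TQ replicate 2, -0.95) and in SARB (without control replicate 2, control replicate 3 or any SARB sample but replicate 2, -1.13 to -0.74), of PIK3CG in Combi (without any control sample but replicate 3, or without Combi replicate 2 or 3, -1.62 to -0.68) and of PPP2R2B in 5-FU (without control replicate 2 or 3 or 5-FU replicate 1 or 2, -1.37 to -0.97) and SARB (without control replicate 3, -1.21, or SARB replicate 3, -1.17). Between SARB and Combi, PIK3CG (2.27, with 0 of 3 Combi samples above background, so not an exact size) and PIK3R1 (0.90), a regulatory subunit, were called higher in SARB and PPP2R2C (-0.68), a PP2A subunit, lower. These were, under the cartridge block, at -0.15, 0.08 and -0.48 and none was called, and PPP2R2C lost its call after TMM normalization too (-0.41). Against the sum of TQ and 5-FU, 11 of the 27 genes were called higher in Combi and 4 lower, with a median of 0.70, as for all genes. After TMM normalization 4 were called higher and 6 lower, and over the panel the counts turned from 213 higher and 52 lower to 85 and 123. The furthest from the sum were PIK3CG (-2.76), PIK3R5 (1.65), PIK3R1 (-1.46) and PIK3CB (1.08) of 7 called in the PI3K list, GSK3B (1.75), BAD (1.75), CDKN1A (1.45) and CASP9 (1.17) of 5 called AKT substrates, and PPP2R2B (2.90), PPP2R2C (1.07) and PPP2R1A (-0.69) of the PP2A list, and with the cartridge block none of these was called.

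The patterns most like each gene over the 15 samples were sought among 514 genes with a mean raw count of at least 20, as Pearson r of log2(scaled count + 1). All genes share each sample's scaling factor, and the samples form 5 groups, so these values rank likeness only and no test was made. STK11 was most like CAPN2 (0.948), EPHA2 (0.943) and PML (0.942). EIF4EBP1 was most like MCM4 (0.940), MCM7 (0.934) and CCNA2 (0.912), genes of DNA replication and the cell cycle. MTOR was most like PIK3CA (0.920), the catalytic PI3K subunit, followed by KLF4 (0.897) and PHF6 (0.894). DDIT4 was most like RAC1 (0.888), TIAM1 (0.876), an activator of RAC1, and APC (0.853). Likeness was lower for AKT1, with ZAK (0.808) and ARID1A (0.784) among its closest, for AKT2, led by SMAD2 (0.803), ATRX (0.792) and HMGA2 (0.745), and for TSC1, led by COL1A1 (0.773), FOSL1 (0.756) and LIF (0.755).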

How the data were processed

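RNA of 15 HCT116 samples (50 ng each) was counted on the NanoString PanCancer Pathways panel, with 730 endogenous genes, 40 housekeeping genes, 8 negative and 6 positive control probes. The authors deposited raw counts per probe, which were used for all main results. The deposited normalized values (unit signal) were made by the authors in nSolver Analysis Software 3.0, by scaling to the geometric mean of the housekeeping genes, and do not fall below 1. They were used only in an alternative. A deposited table of the authors' fold changes and p-values was not used.

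Counts were scaled to an equal geometric mean of the 40 housekeeping genes, and all 5 groups entered 1 quasi-likelihood fit (edgeR 4.0.16, R 4.3.3) with group as the only term. P-values were adjusted by Benjamini-Hochberg over 730 genes, and genes were called at an adjusted p up to 0.05 together with a 1.5-fold or larger change. A 95% interval is that of the fit and is not adjusted. The procedure was tested on simulated counts of 730 genes, 200 of them changed, for TQ against control. It recovered 154 of the 200 and made 3 false calls, so a changed gene can go uncalled. The precision of a value is set by its raw counts and by 3 samples per group, which the series calls biological replicates without naming separate cultures in each label, so p-values measure the spread between these samples. No pair of samples of the same group agreed within counting noise. Cartridge was read from the run identifier in the labels.

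The genes and lists were chosen with earlier results of these data known. Of each list, the called genes were named, the 4 largest where more were called. The 3 most similar genes per member had a mean count of at least 20. Alternatives were DESeq2 1.42.0 with its own size factors, TMM, limma 3.58.1 on log2(authors' value + 1), a filter at a mean count of 20, the 34 housekeeping genes with a mean count of at least 100, cartridge or replicate number as a block, no minimum fold change, and leaving out each sample. Promoters came from RefSeq, matched by symbol. Some list genes and results are not reported here.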

Additional observations from a re-analysis of the deposited data

Results flagged for a closer look

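Both results concern the difference between treatments, tested as 1 contrast over Combi, TQ, 5-FU and control in edgeR's quasi-likelihood fit. DDIT4 in Combi lay 2.47 above the sum of the log2 changes of TQ and 5-FU (adjusted p = 2.21e-06), and all 3 Combi samples, at 270.4 to 355 scaled counts, were above all 3 TQ samples, at 121 to 142. MTOR in Combi lay 0.98 above that sum (adjusted p = 0.000525), with 268 to 296 scaled counts in Combi against 181 to 203 in TQ and 166 to 204 in 5-FU. The median of all genes was itself 0.70 above the sum, and 29.2% of the panel was called higher. After TMM normalization DDIT4 was at 1.92 and called, and MTOR was at 0.41 and not called. The doses of the single treatments differ from those in Combi, and Combi ran on other cartridges than TQ and 5-FU. With cartridge as a block the values were 3.10 for DDIT4, which was called, and 0.58 for MTOR, which was not. That fit takes control replicate 1, the highest control sample for DDIT4, as the control of TQ and 5-FU. The part of dose and cartridge was not tested further.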

How the results depend on the processing

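DESeq2 and TMM, which centre the bulk of the panel, gave 2 of the 7 genes higher in TQ and 2 in 5-FU, and 1 higher and 3 lower against the sum of TQ and 5-FU, and TMM gave 1 lower in Combi. The cartridge block gave 0 higher in 5-FU, Combi and SARB, 1 lower in Combi and 1 higher against the sum. Limma on the authors' values gave 2 lower in TQ and 0 higher in Combi. The 34 brighter housekeeping genes gave 2 lower in TQ and 1 lower in SARB against Combi, and no minimum fold change gave 2 lower in TQ, 2 higher and 3 lower in 5-FU and 2 lower in SARB against Combi. Leaving out 1 sample gave 1 to 2 lower in TQ, 0 to 1 higher and 1 to 2 lower in Combi, 0 to 1 lower in SARB against Combi and 0 to 1 lower against the sum.

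Signs turned in values that were not called, given here in the order DESeq2 then TMM. In TQ these were AKT2 (0.30 and 0.27) and MTOR (0.15 and 0.12), and in 5-FU AKT2 (0.15 and 0.14). In SARB they were AKT1 (0.19 and 0.18), AKT2 (0.17 and 0.16) and MTOR (0.13 and 0.12). In SARB against Combi they were AKT2 (0.13 and 0.059) and TSC1 (0.17 and 0.10). Against the sum they were AKT2 (-0.42 and -0.31) and EIF4EBP1 (-0.44 and -0.33). Not all were near 0 in the main fit, which had MTOR in TQ at -0.36 and, against the sum, AKT2 at 0.26 and EIF4EBP1 at 0.24. The cartridge block turned AKT1 (-0.12) and STK11 (-0.17) in TQ, AKT1 (-0.0038) in 5-FU, AKT2 (-0.34) in Combi, AKT1 (-0.22), AKT2 (0.21), STK11 (-0.033) and EIF4EBP1 (-0.16) in SARB against Combi, and AKT1 (0.018), AKT2 (-0.20) and STK11 (0.11) against the sum. Limma turned AKT1 in TQ (-0.048), AKT2 in Combi (-0.10) and AKT1 in SARB against Combi (-0.014). The brighter housekeeping genes turned AKT1 in TQ (-0.017) and in SARB against Combi (-0.055). With 1 sample left out, the range was -0.049 to 0.13 for AKT1 in TQ, -0.095 to 0.0056 for AKT2 in 5-FU, -0.10 to 0.13 for AKT2 in Combi, -0.15 to 0.45 for EIF4EBP1 against the sum, and -0.016 to 0.030 for AKT1, -0.031 to 0.24 for STK11 and -0.088 to 0.51 for EIF4EBP1 in SARB against Combi. The cause of these turns was not tested.

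Replicate numbers share only a number: same-numbered samples deviated from their group means with a median correlation of -0.04 over 30 pairs (-0.67 to 0.39). The replicate block changed no call, and turned AKT1 in SARB against Combi to -0.0006. In all, 541 of 630 gene values under an alternative kept their direction and side of the thresholds, and 271 of these came from leaving out 1 sample. The total thus rests largely on settings close to the main one. Of 42 values each, 42 were kept under the count filter and 41 under the replicate block, but only 25 under DESeq2 and 24 under TMM. The cartridge block turned the direction of 11. Each of the 7 genes lay above background in all 15 samples, but some of the other pathway genes, such as PIK3CG and PPP2R2B, did not. The 3 samples per group, the spread of the control samples, the cartridges and the choice of scaling all limit these values, and were not ranked.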
